A study of Homo sapiens with 2 samples.

Results

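The 337 entries described here are the sites that 2 deposited PAR-CLIP lists for SOX2 place between positions 26000000 and 28900000 of human chromosome 6 (hg19), a stretch of 2.9 Mb known for histone and transfer RNA genes. They are all sites with a start of at least 26000000 and an end below 28900000, on both strands: 105 of the 16964 sites of replicate 1 and 232 of the 55830 sites of replicate 2. Both libraries came from HEK293T cells, an established human embryonic kidney line, that had been transfected with a plasmid for FLAG-tagged SOX2, so the protein was supplied from outside and not measured at its natural level. Per the labels, cells were given 4-thiouridine at 0.2 mM for 16 hours, starting 24 hours after transfection, irradiated at 365 nm with a dose of 0.4 J/cm2, and treated with RNase T1 before and after FLAG immunoprecipitation. The libraries form 1 group of 2 samples called replicates, which the labels do not say came from separate cultures, so the spread between them may be technical. No control library was used here, so neither background crosslinking nor the abundance of each RNA was measured.

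SOX2 is a transcription factor that binds DNA through an HMG box and is used to reprogram somatic cells to pluripotency, and the samples were made to ask which RNAs it contacts. In PAR-CLIP a photoreactive uridine in newly made RNA is crosslinked to a bound protein, and the protected fragments are read. Replication-dependent histone genes supply the linker histone H1 and the core histones H2A, H2B, H3 and H4 that package newly copied DNA. Their mRNAs are short, have no introns and end in a conserved stem-loop in place of a poly(A) tail. Many H2A and H2B genes stand head to head and are read outwards from a shared promoter. Transfer RNA genes are shorter still, are read by RNA polymerase III from promoters inside the gene, and give precursors that are trimmed at both ends before they carry amino acids to the ribosome.

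The reference gene table supplied is on GRCh38.p14, not on the build of the lists, so coordinates were not carried over and no site was assigned to a gene. Gene order alone was read from it. Between H1-1, a linker histone gene, and TRIM27, a tripartite-motif protein gene, RefSeq lists 53 protein-coding genes of the H1, H2A, H2B, H3 and H4 families and 135 transfer RNA genes. They do not lie evenly in that order. From H1-1 to the butyrophilin genes there are 32 histone genes and 13 transfer RNA genes, 21 more histone genes follow after HMGN4, and 37 transfer RNA genes come after the last histone gene. How the sites divide between the 2 classes of gene was therefore not analysed here. Genes of both classes have near-identical copies, and the sources used here do not say how reads that match several places were treated, so a site in a repeated gene may stand for several copies.

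The region was rich in sites in both lists. Replicate 1 had 36.2 sites per Mb (95% exact Poisson interval 29.6 to 43.8), against 4.57 on the rest of chromosome 6 and 5.50 in the rest of the nuclear genome. Replicate 2 had 80 per Mb (70.0 to 91.0), against 13.4 and 18.2. The density was thus 6.59 times that of the rest of the nuclear genome in replicate 1 and 4.41 times in replicate 2. Sites on 1 RNA are not independent, so these intervals cover counting error over sites only and no test was made between the region and the rest. Every nuclear chromosome was also divided into tiles of 2.9 Mb. By number of sites the region ranked 10 of the 937 tiles that held sites in replicate 1 and 46 of 945 in replicate 2, where the median tile held 11 and 28 sites. The region held 0.619% of the sites of replicate 1 and 0.416% of those of replicate 2, but 4.06% and 2.14% of the summed score (3.10% ± 1.36, SD, n = 2).

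Sites of the region had high scores. The score is a whole number given by the authors for each site, without a stated meaning, and looks like a number of reads. Its median in the region was 163 in replicate 1 (quartiles 48 and 459) and 61 in replicate 2 (19 and 226), against 26 and 19 in the rest of the nuclear genome. A score of at least 100 was reached by 64 of 105 sites in replicate 1 (61.0%, 95% Wilson interval 51.4 to 69.7) and by 96 of 232 in replicate 2 (41.4%, 35.2 to 47.8), while 14.8% and 7.34% of all sites of these lists did so. A score of at least 1000 was reached by 20 of the 105 sites of replicate 1 (95% Wilson interval 12.7 to 27.6%) and 14 of the 232 of replicate 2 (6.03%, 3.63 to 9.87), against 1.58% and 0.491% of all sites. These were 7.46% of the 268 such sites of replicate 1 and 5.11% of the 274 of replicate 2. By this number the region ranked 1 among the tiles in replicate 1 and 2 in replicate 2, and the median tile had 0 such sites. Replicate 2 had 1.5 times as many sites as replicate 1 at scores of at least 100, and 3.32 times as many below 100, with 136 against 41. The whole lists also had more sites in replicate 2, 4096 against 2518 at scores of at least 100 and 55830 against 16964 in all.

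**Figure D1:**
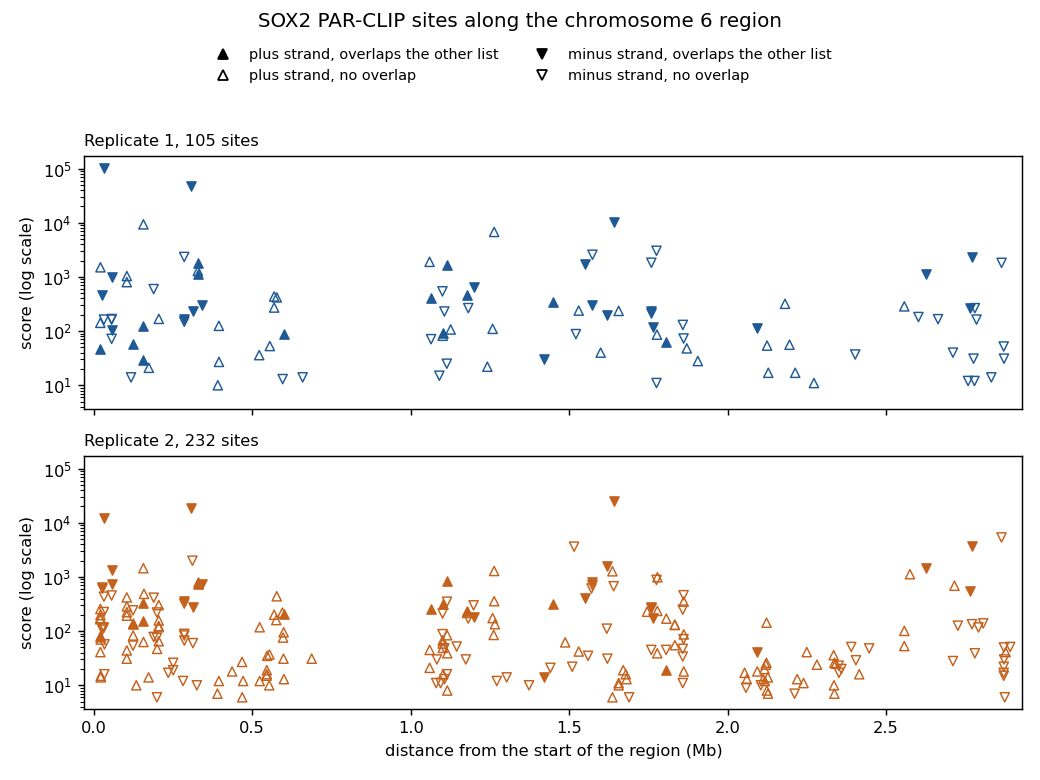
Each triangle is a site of the region, at its distance in Mb from the start of the region and at its score on a log scale, in replicate 1 above and replicate 2 below; triangles point up for the plus strand and down for the minus strand, and filled ones overlap a site of the other list. The 3 highest sites are on the minus strand and filled in both panels, and no site lies between 0.7 and 1.0 Mb.

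The same 3 minus-strand sites led both lists, in a different order. The first spanned 26031990 to 26032038 in replicate 1, and replicate 2 placed it 1 nt to the left. It was 49 nt long in both and scored 102948 in replicate 1 and 12113 in replicate 2, 8.50 times more in the former. It was the longest site of the region in replicate 1. The next lay at 26305725 to 26305748, with 47121 in replicate 1 and 19010 in replicate 2, and had no other site within 500 nt on its strand. The last of the 3, at 27640292 to 27640307, was stronger in replicate 2, where it scored 24856 against 10519. Together these 3 sites took 73.6% of the score of the region in replicate 1 and 50.3% in replicate 2. Set aside, they left 57457 in replicate 1 and 55330 in replicate 2, so the region's 2 sums, 218045 and 111309 with them, differed chiefly by the strongest sites. With 1 value per library, no difference between the replicates at a site was tested.

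The next 2 pairs by mean rank lay near the far end of the region. A minus-strand site that spanned 28770566 to 28770584 had scores of 2335 in replicate 1 and 3743 in replicate 2, and both lists gave it the same upstream edge on the RNA. The minus-strand site at 28626052 to 28626069 scored 1118 in replicate 1 and lay inside a 41 nt site of replicate 2 that scored 1441. These 2 pairs scored within a factor of 1.60 of each other across the lists.

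On the plus strand, 2 pairs stood close together. The one that began at 26327825 had a score of 1139 in replicate 1 and of 800 in replicate 2, and the one at 26328420 to 26328433 scored 1829 and 745. Both had the same downstream edge in the 2 lists. The plus-strand pair at 27115033 to 27115046 scored 1679 and 854, with the same upstream edge in both. All 3 were higher in replicate 1, by 1.42 to 2.46 times.

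The remaining pairs of the 10 with the best mean rank were on the minus strand. At 26056605 to 26056639 a 35 nt site of replicate 1 scored just under 1000 and a 15 nt site of replicate 2 scored 732. At 27551252 to 27551265 they were 1745 and 403, a ratio of 4.33. Of these 10 pairs, 7 scored higher in replicate 1, whereas of the other 24 pairs of the region 17 scored higher in replicate 2.

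In all, 34 sites of each list overlapped a site of the other by at least 1 nt on the same strand, as 34 pairs, 13 on the plus strand and 21 on the minus strand. That was 32.4% (95% Wilson interval 24.2 to 41.8) of the region's sites in replicate 1, where 21.3% of the whole list overlapped, and 14.7% (10.7 to 19.8) in replicate 2, where 6.5% did. Strong sites overlap more often across the whole of these lists, and the region had many of them. At the score classes of the region, the rest of the nuclear genome would have given 39.9% in replicate 1 and 16.3% in replicate 2, both inside the region's intervals. The region's shares were thus not above those of sites with like scores elsewhere. At scores of at least 1000, 9 of 20 sites of replicate 1 (45.0%, 25.8 to 65.8) and 7 of 14 of replicate 2 (50.0%, 26.8 to 73.2) overlapped, against 62.3% and 55.1% elsewhere in the nuclear genome. The overlapping sites carried 81.0% of the region's score in replicate 1 and 66.5% in replicate 2, against 75.5% and 50.1% in the rest of the nuclear genome, and the 3 leading sites alone made up 73.6% and 50.3%.

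**Figure D2:**
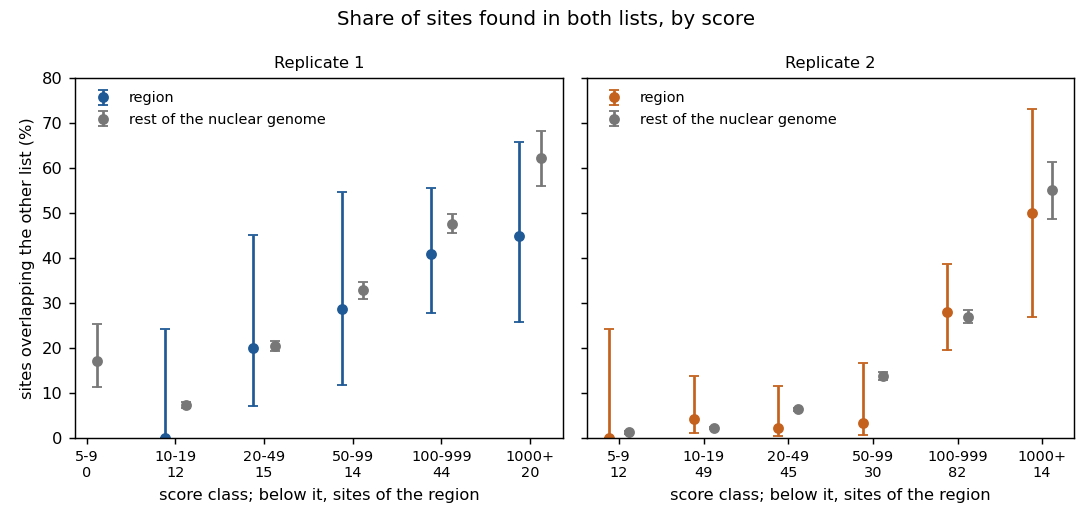
Share of sites that overlap a site of the other list, in percent, by score class (x axis, with the number of sites of the region under each class), for the region (coloured) and the rest of the nuclear genome (grey); bars are 95% Wilson intervals. In both panels the share rises with the score from a score of 50 upwards, and the intervals of the region are wide, with 45.0% of 20 sites in the highest class of replicate 1.

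Scores of the 34 pairs went together. Across them Pearson's r on log10 scores was 0.83 and Spearman's rho 0.74, against 0.75 and 0.67 across the 3534 overlapping replicate 1 sites of the rest of the nuclear genome. These are descriptions across sites, which share their 2 libraries and often their RNA. The log2 ratio of replicate 2 to replicate 1 was 0.33 at the median of the region (SD 1.50) and -0.22 at the median elsewhere (SD 1.35). Replicate 1 was higher in 14 pairs and replicate 2 in 20, and 5 pairs (14.7%) differed by more than 4-fold, where 11.9% of pairs did so elsewhere. Of the 5, 2 were higher in replicate 1 and 3 in replicate 2, the widest at 26056535 to 26056556 on the minus strand, with 105 and 1325.

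**Figure D3:**
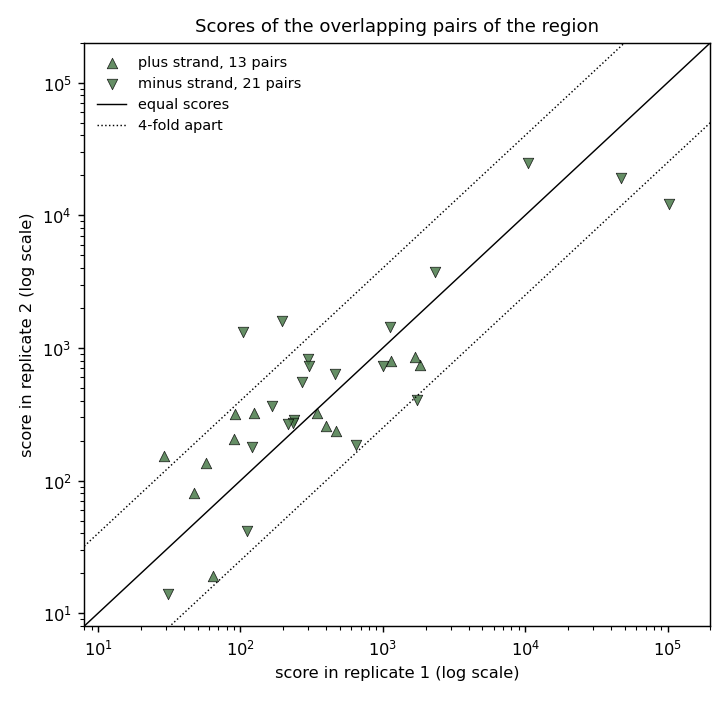
Score in replicate 1 (x axis) against score in replicate 2 (y axis), both on log scales, for the 34 overlapping pairs of the region, with the line of equal scores and dotted lines 4-fold away from it. The 3 pairs at the upper right are the 3 strongest minus-strand sites, and 5 pairs lie outside the dotted lines.

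Edges of paired sites lay close but were seldom both the same. Read along the RNA, the upstream edges lay at most 2 nt apart in 20 of 34 pairs (58.8%) and the downstream edges in 22 (64.7%), against 41.7% and 45.3% in the rest of the nuclear genome. The downstream edge was identical in 8 pairs and the upstream edge in 4. In 0 of the 34 pairs were both identical, against 5.47% of pairs elsewhere, and 34 pairs are too few to tell these shares apart. RNase T1 cuts after guanosine, and how much of the shared edges follows from the sequence was not tested, since no genome of this build was supplied.

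Along the region, sites fell into blocks divided by empty ground. Of 29 windows of 100 kb, 22 had sites of both lists and 3 had none. The longest stretch without a site on either strand ran from 26687535 to 27059527, 371993 nt, and the next from 27905859 to 28053341. Replicate 1 had the most sites in the windows from 26000001 to 26100000, with 11, and from 27100001 to 27200000, with 10, followed by 9 each in those from 26100001 to 26200000 and from 26300001 to 26400000. Replicate 2 had the most in the window from 26100001 to 26200000, with 24, then 23 from 26000001 to 26100000 and 22 from 27100001 to 27200000. The same 3 windows were thus among the fullest in both lists. Across the 29 windows the numbers of sites of the 2 lists had a Spearman's rho of 0.81, given as a description.

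**Figure D4:**
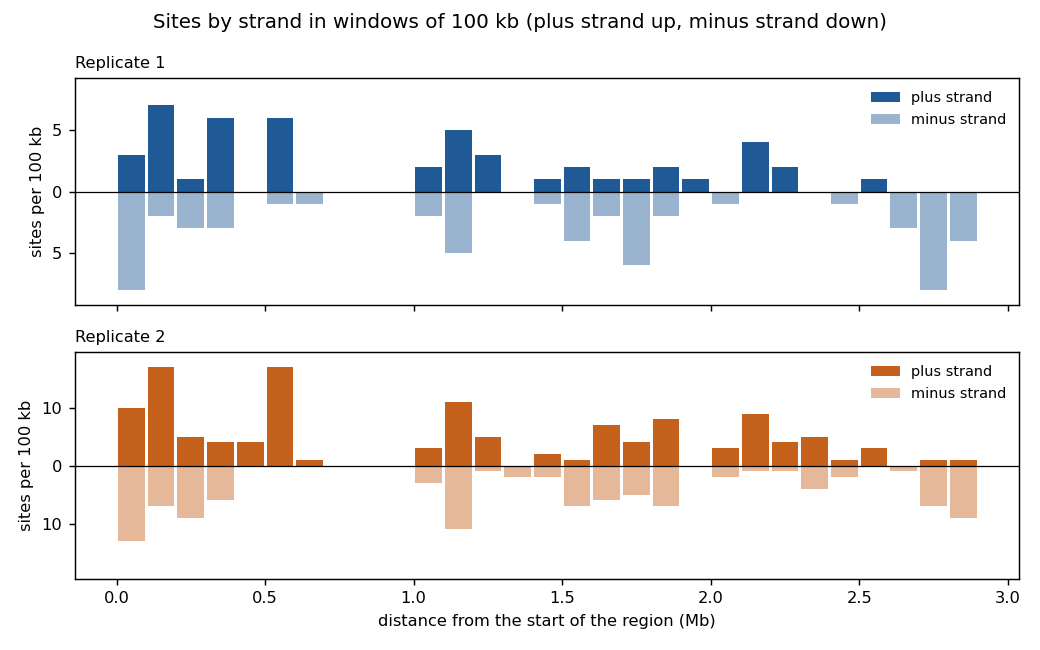
Sites per window of 100 kb along the region, by distance in Mb from its start, with plus-strand sites upwards and minus-strand sites downwards, for replicate 1 (top) and replicate 2 (bottom, with its own scale). Both lists have their fullest windows in the first 0.2 Mb and at 1.1 Mb, and minus-strand sites prevail in the last 0.3 Mb.

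Divided at these 2 empty stretches, which were chosen after the values were seen, the region had its highest median scores in its first and middle blocks. The first block, up to 26687535, had 59.6 sites per Mb in replicate 1 and 135 in replicate 2, and median scores of 167 and 95. The middle block, from 27059528 to 28000000, had 42.5 and 90.4 per Mb, with medians of 206 and 71. The last block, from 28000001, had 26.7 and 60.0 per Mb, with medians of 55 and 25.5. These medians were lower, but above the 26 and 19 of the whole lists. Of the last block's sites, 45.8% and 22.2% scored at least 100, against 14.8% and 7.34% of all sites. The boundary between the middle and last blocks lies inside the second empty stretch, so their densities count parts of it. The first block stops where the first empty stretch begins, so the densities are not fully alike. In the last block 4 of 24 replicate 1 sites (16.7%, 95% Wilson interval 6.68 to 35.9) overlapped a replicate 2 site, against 15 of 41 (36.6%, 23.6 to 51.9) in the first and 15 of 40 (37.5%, 24.2 to 53.0) in the middle. These intervals overlap.

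Within the last block, 2 spans differed in strand and score. From 28100001 to 28500000, replicate 1 had 7 sites with a median score of 37, 6 of them on the plus strand. Replicate 2 had 27 with a median of 20, 19 of them on the plus strand. In this span 0 sites overlapped between the lists. In the rest of the nuclear genome, 7.17% of replicate 1 sites scoring 10 to 19 overlapped, and 20.3% of those scoring 20 to 49. For replicate 2 these shares were 2.08% and 6.28%. With so few sites, 0 overlaps does not set the span apart. From 28600001 to 28900000, by contrast, all 15 sites of replicate 1 and 17 of the 19 of replicate 2 were on the minus strand, and their medians were 163 and 51. Among these sites 3 pairs overlapped. The opposite one-sidedness was found from 26500001 to 26600000, where 6 of 7 sites of replicate 1 and all 17 of replicate 2 lay on the plus strand. These spans too were chosen after their values were seen.

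Over the whole region the strands were used about evenly by number and not by score. The minus strand held 54.3% of the sites of replicate 1 and 45.7% of those of replicate 2, but 85.1% and 81.7% of the score. This rested on the 3 leading sites: without them the minus strand took 43.5% of the score in replicate 1 and 63.2% in replicate 2, on opposite sides of an even split.

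Because no annotation of the build was supplied, sites of both lists on 1 strand were joined where at most 500 nt lay between them, as a stand-in for short genes without introns. This gave 176 groups, of which 55 (31.2%) held sites of both lists, against 13.1% of the groups in the rest of the nuclear genome, made the same way. Comparisons of groups with those elsewhere were not matched for score or site density, both higher in the region. The 55 groups took in 75 of the 105 sites of replicate 1 and 120 of the 232 of replicate 2, and 99.2% and 86.4% of the region's score. Elsewhere such groups took in 47.0% and 25.2% of the sites, against 71.4% and 51.7% here, and 91.9% and 72.2% of the score. In 31 of them a pair of sites overlapped, and in 24 the 2 lists had sites at different places. The 55 groups were compact: 28 spanned at most 100 nt, 10 spanned over 100 and up to 300 nt and 17 more than 300 nt. Their median was 92 nt, against 201 nt elsewhere.

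Sites that did not overlap often lay beside a site of the other list. Of the 71 replicate 1 sites without a partner, 34 (47.9%, 95% Wilson interval 36.7 to 59.3) had a replicate 2 site within 100 nt on the same strand, against 17.3% in the rest of the nuclear genome. On the opposite strand 0 of 71 did, against 0.446% in the rest of the nuclear genome. The 0 allows a share of up to 4.23% at a limit of 3 counts, or 5.13% at the upper Wilson bound. The share elsewhere lies below both limits, so the 0 does not set the region apart. Of the 198 such sites of replicate 2, 49 (24.7%, 19.3 to 31.2) had a replicate 1 site within 100 nt on the same strand, against 6.67% elsewhere. Neither comparison was matched for score or site density, both higher in the region. The strong sites without a partner had such a neighbour most often in replicate 1. There, 10 of 11 with a score of at least 1000 had one within 100 nt, a share not computed for such sites elsewhere. The strongest, at 26156748 to 26156761 on the plus strand, scored 9343 and lay 50 nt from its neighbour. The next, at 27263248 to 27263267 on the plus strand, scored 6767 with replicate 2 sites on both sides, the nearer 1 nt away. In replicate 2, 3 of 7 had such a neighbour, and 4 lay more than 1000 nt from any replicate 1 site on their strand. The strongest of the 7, at 28864010 to 28864039 on the minus strand, scored 5365 and lay 40 nt from a replicate 1 site that scored 1819.

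Rows of sites marked 13 groups with at least 5 sites each, 6 on the plus strand and 7 on the minus strand. They are numbered here in genomic order. All 13 held sites of both lists, 86 in all, with 29 from replicate 1 and 57 from replicate 2, and 8 of them lay in the first block. A minimum of 5 sites over both lists favours groups that hold both. The shares of such groups elsewhere that held both lists, or an overlapping pair, were not computed. The dense groups of the region were 13 of 176 groups with 25.5% of the sites, where the rest of the nuclear genome had 1403 of 48596 groups with 14.1% of the sites, a comparison not matched for site density. Their extents ran from 151 to 1270 nt, and 10 of the 13 measured between 250 and 500 nt. In the rest of the nuclear genome the median extent of such groups was 897 nt, against 369 nt here. They took 57.5% of the region's score in replicate 1 and 22.7% in replicate 2, but 19.4% and 13.2% once the strongest pair of the region was left out, a comparison added after the values were seen. Replicate 2 had more sites in 11 of the 13, while the score sum was higher in replicate 1 in 7 and in replicate 2 in 6.

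Group 1, on the plus strand at 26020708 to 26021169, had the most sites. Its 3 replicate 1 sites summed to 1695, mostly from a site of 1506 at its downstream end. Its 6 replicate 2 sites summed to 913 and scored between 41 and 256. The strongest site of replicate 1 in this group thus had no overlapping site in replicate 2.

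Group 3, on the minus strand at 26031886 to 26032188, held the strongest site of replicate 1. Apart from it, the group had 1 site of replicate 1, which scored 163, and 3 of replicate 2. The score sums were 103111 and 12886. Group 4, on the minus strand at 26056353 to 26056639, was the only one of the 13 with more sites in replicate 1, with 5 against 3, and 2 of them overlapped. It summed to 1506 in replicate 1 and 2512 in replicate 2.

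Group 5, on the plus strand at 26104173 to 26104553, had 2 sites of replicate 1 and 6 of replicate 2 with no overlap between the lists. The replicate 1 sites scored 801 and 1038, and those of replicate 2 between 31 and 419. Group 6, on the plus strand at 26156610 to 26156946, summed to 9497 in replicate 1 and 1990 in replicate 2. The 2 overlapping pairs of group 6 were both stronger in replicate 2, with 29 against 153 and 125 against 325, so its excess in replicate 1 came from the unpaired site of 9343.

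Group 8, on the minus strand at 26285430 to 26285739, closed the first series of dense groups with 3 sites of replicate 1, summing to 2653, and 5 of replicate 2, summing to 927. Group 11, on the minus strand at 27759061 to 27759211, was the shortest, with 3 sites of each list and 2 overlapping pairs. Their scores were 217 and 265 for the first pair and 235 and 274 for the other, in replicates 1 and 2. Group 13, on the minus strand at 28870819 to 28872088, was the longest and the weakest, with no site above 52 in either list and no overlap.

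**Figure D5:**
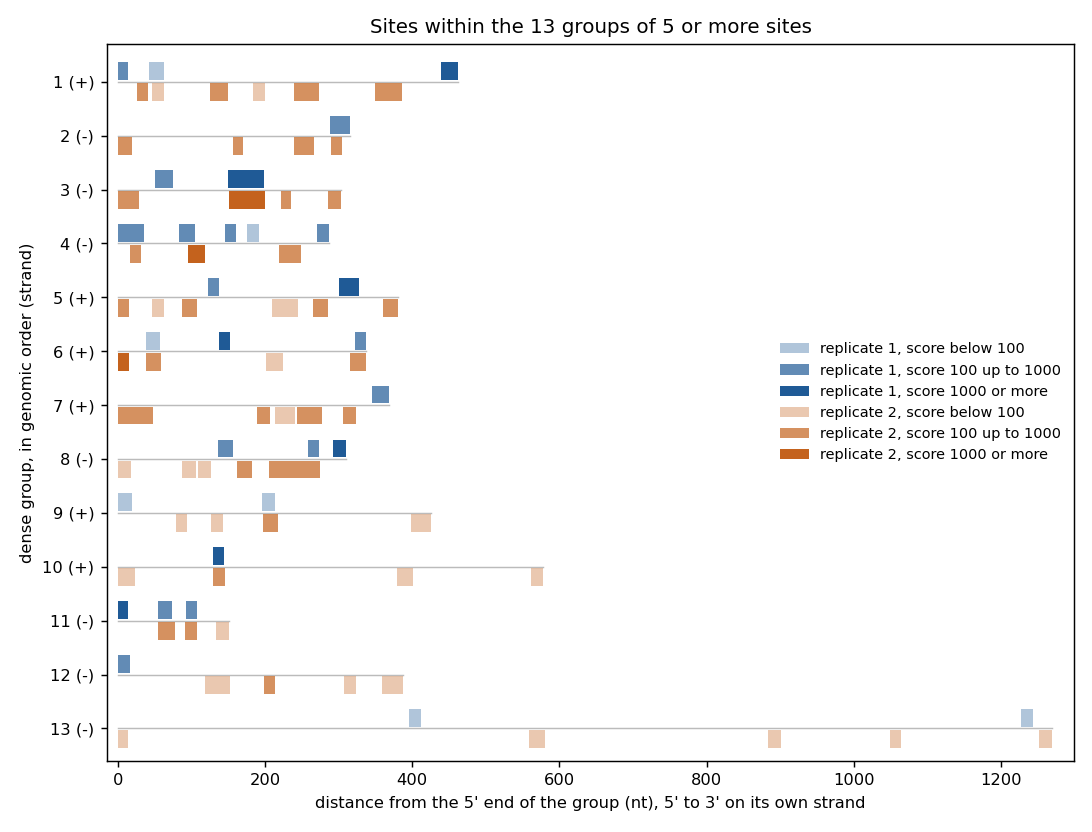
Sites of the 13 groups with at least 5 sites, drawn from the 5' to the 3' end of each group on its own strand (x axis, in nt), with replicate 1 above and replicate 2 below each line and darker boxes for higher scores. Boxes of the 2 lists overlap in 9 of the 13 groups, and 10 of the groups span 250 to 500 nt.

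Groups of both lists that spanned at most 100 nt summed to 83557 in replicate 1 and 66840 in replicate 2. Most of this came from 2 of the 3 leading sites, at 26305725 to 26305748 (47121 and 19010) and 27640292 to 27640307 (10519 and 24856). Of the 10 groups with the best mean rank of score sum in both lists, 6 were at most 92 nt long. The group at 27640232 to 27640307 on the minus strand, 76 nt long, summed to 10519 in replicate 1 and 25530 in replicate 2. The plus-strand group at 27263217 to 27263286, 70 nt long, summed to 6767 and 1646, without an overlap. The minus-strand groups at 28770565 to 28770647 and 28864010 to 28864101 summed to 2335 and 3877, and to 1819 and 5365, both higher in replicate 2. The minus-strand group at 27775398 to 27775488 summed to 3050 and 883. Among all groups of both lists that spanned at most 100 nt, 58.1% of replicate 1 sites overlapped, against 35.7% in those over 300 nt, but a short group leaves less room for sites to miss each other.

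Neighbouring groups on opposite strands pointed away from each other more often than towards each other. With at most 1000 nt between them, there were 9 such neighbours in the region, of which 7 were divergent (minus strand to the left, plus strand to the right; 77.8%, 95% Wilson interval 45.3 to 93.7) and 2 convergent. In the rest of the nuclear genome 53.3% (50.1 to 56.4) of 952 were divergent, inside the interval of the region, so the orientation did not stand apart. Close opposite-strand neighbours of any kind were 5.11 per 100 groups in the region and 1.96 elsewhere, and divergent ones 3.98 and 1.04, differences that were not tested. Nor were they adjusted for site density, which was 6.59 times higher in the region in replicate 1 and 4.41 times in replicate 2. This comparison was chosen after the data were seen.

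The divergent neighbours were 276 to 854 nt apart, and 4 of the 7 had at least 2 sites on each arm. In the closest, a minus-strand group at 27100101 to 27100550 faced group 9 at 27100827 to 27101252. The minus arm summed to 542 in replicate 1 and 299 in replicate 2, and the plus arm to 173 and 494. A similar arrangement was found at 27113888 to 27114599 on the minus strand and group 10 at 27114903 to 27115480 on the plus strand, with sums of 25 and 365 on the left and 1679 and 985 on the right. At 27860731 to 27860925 and 27861240 to 27861465 the left arm summed to 73 and 531, and the right arm to 456 in replicate 2, with no site in replicate 1. Both arms had sites of both lists in the former 2 examples. Whether these arms are paired H2A and H2B genes was not analysed here.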

How the data were processed

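Per the submitters' processing notes, the authors used bcl2fastq, Bowtie 1.1.2 and build hg19. The site caller, its thresholds, and the handling of multiply matching reads are not stated in the sources used here. Each library has its own deposited list with a score per site, of at least 5 and without a stated unit. Read depth is unknown; the scores summed to 5365592 and 5192778. The largest site end on chromosome 6, 170893527, lies beyond the last GENCODE feature there on GRCh38, 170745977, so the builds differ and no site sequence was read.

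Starts were converted to counting from 1. Overlap (1 nt, same strand), joining and intervals were computed with Python 3.11.15, numpy 2.4.6, pandas 2.3.3 and scipy 1.17.1, and tested on simulated lists. The genome length outside the region was taken from each chromosome's largest site end.

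Sites in the text are the 10 overlapping pairs with the best mean rank, the 5 strongest sites per list, the 10 groups ranked by score sum, the 5 groups with most sites and the 3 fullest windows per list; others were chosen after their values were seen. The region and these rules were chosen with earlier results of these data known.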

Additional observations from a re-analysis of the deposited data

How the results depend on the processing

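The overlap of the region's sites moved with the distance allowed. With gaps of up to 50 nt, 57.1% of replicate 1 sites and 29.7% of replicate 2 sites had a partner. In the rest of the nuclear genome 31.0% and 10.5% did. With both lists limited to scores of at least 100, 40.6% of replicate 1 sites overlapped, against 33.1% in the rest of the nuclear genome. For replicate 2 these shares were 27.1% and 20.5%. Spearman's rho of the region's scores was then 0.51 (Pearson's r 0.80) over 26 pairs. With gaps of up to 50 nt rho was 0.54 and r 0.64, over 60 replicate 1 sites with a partner. Under the other alternatives rho ranged from 0.71 to 0.81, against 0.74. The region's share of sites was 2.44% of each list on average at scores of at least 100. With windows of 50 kb, 34 of 58 windows had sites of both lists and 12 were empty, against 22 and 3 of 29. At scores of at least 100 there were 77 groups, 39 with both lists, and 10 of the 29 windows were empty. Leaving out either replicate leaves the other's value, 2.14% to 4.06% for the score share and 0.416% to 0.619% for the site share. An overlap of at least 50% of both sites, strand ignored, and sites at or above the list's median score left the overlap shares within their intervals. Joining at 100 or 1000 nt gave 50 and 57 groups of both lists. Removal of the strongest site left the score share within 1 SD. Without the strongest site of the region the score share was 1.93% ± 0.364 (SD, n = 2). No paired analysis was possible because all samples belong to 1 group. Members by annotated gene were not run, for want of an annotation on hg19. Depth is unknown, so what it limits among weak sites was not measured.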

Other observations

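Site names consist of a G number and an index, and the sources used here do not give their meaning. Sites that share a number always lay on 1 chromosome and strand. In the region 14 of 105 sites of replicate 1 (13.3%, 95% Wilson interval 8.11 to 21.1) and 76 of 232 of replicate 2 (32.8%, 27.0 to 39.0) shared their number with another site, against 2.24% and 11.1% in the rest of the nuclear genome. The region had at most 3 sites under 1 number in replicate 1 and at most 6 in replicate 2, against 9 and 11 elsewhere. These comparisons were not matched for site density, which was higher in the region.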
